A study of Oncorhynchus mykiss with 60 samples.

Results

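The genes described here are 6 rainbow trout (Oncorhynchus mykiss) genes of the system that sets the dorsal to ventral axis of the embryo, out of 23471 genes in the count table. A gene was taken when its own identifier, or the symbol of its zebrafish ortholog in the deposited ortholog table, was one of 8 symbols (chrd, vox, ved, vent, bmp2b, bmp4, bmp7a and nog1). Matches were found for 5 of the 8 symbols. The genes are bmp4, vox, vent, ved (LOC110509556) and 2 copies of chrd (LOC110504089 and LOC110507926), and bmp2b, bmp7a and nog1 were not analysed here.

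Bone morphogenetic proteins (BMPs) are secreted signals that specify ventral and lateral fates in the fish embryo. Chordin, the product of chrd, is a secreted protein of the dorsal organizer that binds BMPs and keeps them from their receptors. In zebrafish, vox, vent and ved are homeobox genes whose products repress dorsal genes, chrd among them.

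The study sequenced RNA from eggs and embryos cut across the animal to vegetal axis, from section A at the animal pole, where the embryo forms, to section E at the vegetal pole, which is mostly yolk. The stages were 0 and 1 hours post fertilization (hpf) and 1 and 3 days post fertilization (dpf), which gave 4 stages and 20 groups of stage and section. The 0 hpf samples are labelled both as non-fertilized and as freshly fertilized eggs, the 1 hpf samples both as 1-cell and as early cleavage, the 1 dpf samples as early blastulae and the 3 dpf samples as mid-blastulae. No treatment or genotype is given, and each group held 3 replicates, except at 1 hpf, where 2 were analysed. Replicates are called biological in the labels, with nothing said of parents or clutches, so a p-value here reflects how these samples varied, some of which may be technical. Each section pools all cells around the egg, so dorsal and ventral sides were not separated.

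The 55 libraries held 1.09 to 14.46 M counts each, with M for mega, and the median was 4.6 M. Levels are CPM, the usual depth-scaled counts, here with the TMM factors of edgeR. A count of 0 allows a level of up to that of 3 counts, 0.192 to 2.98 CPM by library. Intervals and such floors cover counting error only. All 50 replicate pairs differed beyond counting noise, and their chi-square divided by its degrees of freedom ran from 2.63 to 19.43. At 1 dpf, replicate 3 differed more from replicates 1 and 2 (10.02 to 18.84) than those did from each other (2.63 to 4.14), and at 3 dpf replicate 3 also stood apart (6.47 to 19.43 against 2.67 to 4.33). At 0 hpf it was replicate 2 that differed more from the others (9.62 to 17.77 against 4.18 to 7.78). In bulk sections, fewer cells of a type and less RNA per cell cannot be told apart, and equal RNA input per library makes every level a share of its section's RNA. No batch is named in the labels.

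bmp4, which encodes a BMP ligand, was present over the whole egg at 0 hpf. At 0 hpf all 15 libraries held it, at 35.8 to 48.9 CPM, with means from 40.5 ± 4.2 CPM in section A to 46.1 ± 2.16 CPM in section E (SD, n = 3). The difference between A and E was -0.17 on the log2 scale (SE 0.11, edgeR adjusted p = 0.184). All 3 replicates were slightly lower in A. Only bmp4 and chrd LOC110504089 passed the low-count filter at this stage and neither was called, where 64.0% of 21799 genes were called, 32.0% higher and 32.0% lower.

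At 1 hpf bmp4 was lower in every section. The 10 libraries ranged from 7.76 to 14.5 CPM, and the section means lay between 9.0 ± 1.23 CPM in B and 14.0 ± 0.728 CPM in D (SD, n = 2). No 1 hpf library reached the lowest of the 0 hpf libraries. Summed over the 5 sections of a replicate, bmp4 stood at 44.0, 40.3 and 44.4 CPM at 0 hpf and at 11.1 and 9.56 CPM at 1 hpf, so the groups did not overlap.

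The level of bmp4 in these sums fell by 2.08 on the log2 scale from 0 to 1 hpf (SE 0.27, edgeR adjusted p = 0.00429). Of 23460 genes tested in this comparison 3.48% were called, 2.21% higher and 1.27% lower, and bmp4 was the 1 gene of the 6 called. With 1 replicate number left out the fall stayed at -2.16 to -1.98, while its adjusted p rose to 0.5 without replicate 1 and to 0.0652 without replicate 3. Between A and E at 1 hpf the difference of bmp4 did not pass the test (log2 0.11, SE 0.26, adjusted p = 0.735). The same 2 genes were tested there and neither was called, where 52.5% of 21644 genes were, 27.6% higher and 24.9% lower.

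At 1 dpf bmp4 was still low and spread over all sections. Its level was 11.8, 15.8 and 8.98 CPM in section A and 5.53, 11.2 and 12.9 CPM in section E for replicates 1, 2 and 3. Section A was higher in replicates 1 and 2 and lower in replicate 3, and the groups overlapped. The fitted difference was 0.39 (SE 0.26, adjusted p = 0.197), and it passed the threshold without replicate 3 (log2 0.81, adjusted p = 0.00759). With library totals alone in place of TMM factors it was 0.69 (adjusted p = 0.0277), but that scaling moved the median of all genes by 0.3 in the same direction.

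By 3 dpf bmp4 had become higher at the animal pole. Section A held 57.7, 45.5 and 34.3 CPM and section E 12.4, 10.2 and 16.2 CPM. Every section A library exceeded every section E library. The difference was 1.85 (SE 0.3, adjusted p = 4.49e-05).

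Section B held 24.0, 13.5 and 36.0 CPM, and sections C and D held 11.8 ± 0.92 and 13.0 ± 4.39 CPM. Section A rose by 1.84 from 1 to 3 dpf (SE 0.26, adjusted p = 0.000164), from 12.2 ± 3.42 to 45.8 ± 11.7 CPM. The sums over sections rose by 1.04 (SE 0.23, adjusted p = 0.0161), a call lost without replicate 1 (adjusted p = 0.405), without replicate 3 (0.206) and without 1 dpf replicate 3 alone (0.0592). The change in the A to E difference from 1 to 3 dpf, tested as such, was 1.48 (SE 0.35, adjusted p = 0.000668).

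Ordered by mean, bmp4 was highest in the 5 sections of 0 hpf and in section A of 3 dpf, which together lay between 40.5 and 46.1 CPM. Section B of 3 dpf followed at 24.5 ± 11.3 CPM. The other 13 groups lay between 8.08 and 14.0 CPM. No neighbouring pair in this order was separated beyond the values of its libraries.

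**Figure D1:**
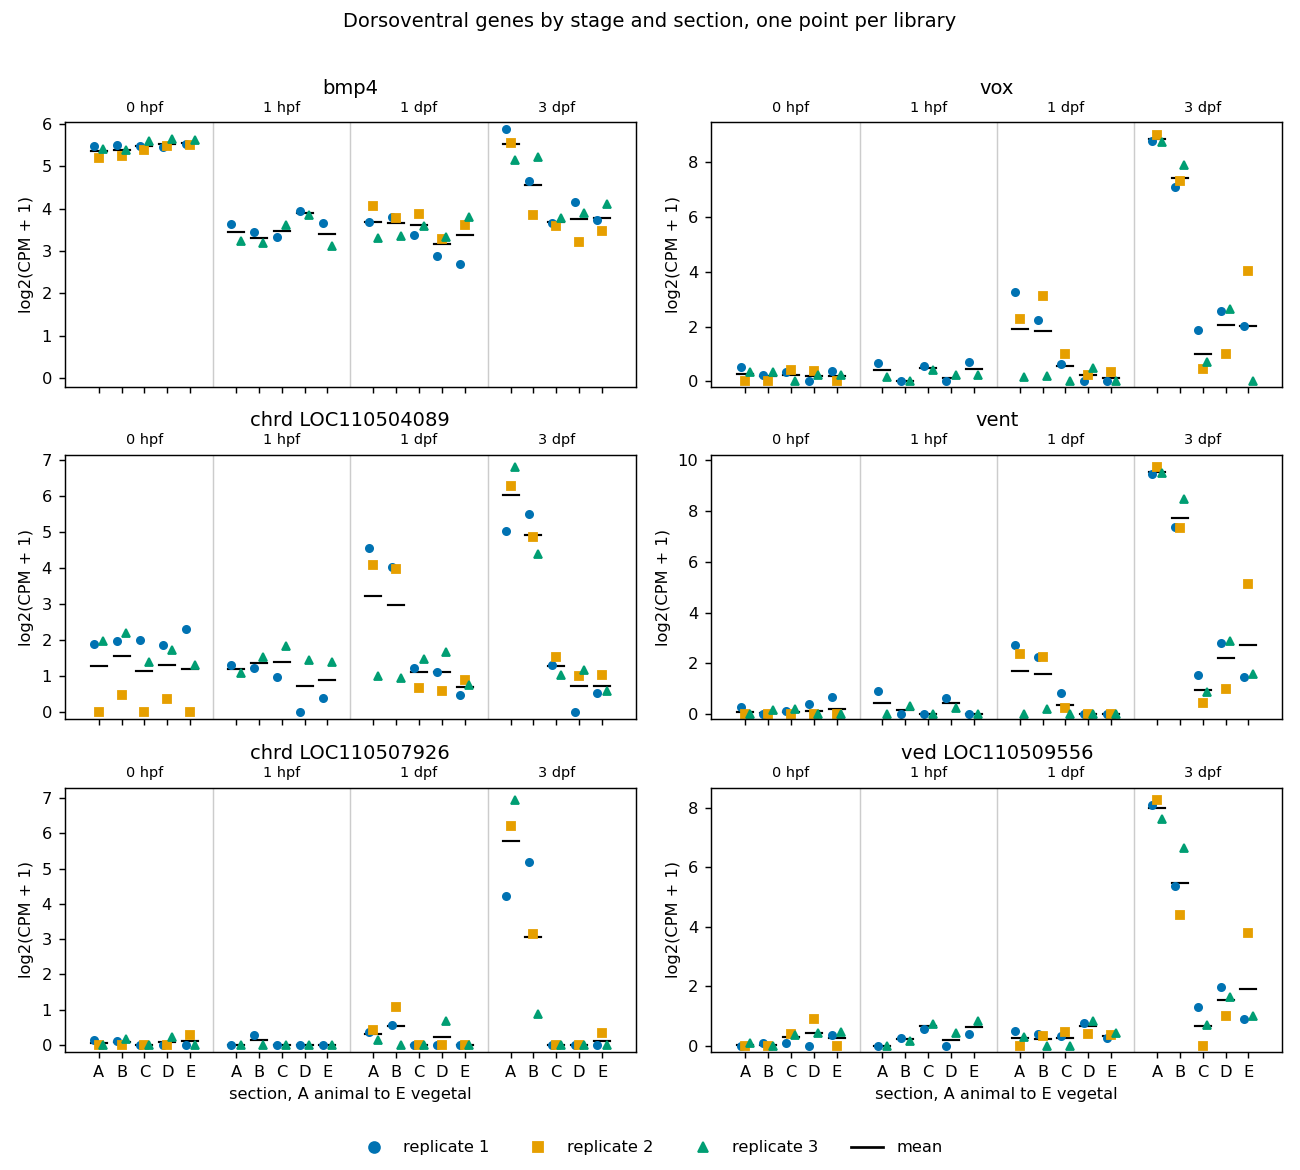
Level of each gene in every library as log2(CPM + 1), by section from A (animal) to E (vegetal) within each stage; points are libraries, shaped by replicate, and bars are means of 3 replicates (2 at 1 hpf). bmp4 is even over the sections at 0 hpf and low at 1 hpf, and the other 5 genes are high in sections A and B of 3 dpf, with 1 dpf replicate 3 low where replicates 1 and 2 show chrd LOC110504089, vox and vent.

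The 2 copies of chrd, the BMP antagonist, differed in when they were first seen. LOC110504089 was present in 0 hpf eggs at a low level and not in every replicate. Summed over the 5 sections, replicate 1 held 117 counts (2.98 CPM), replicate 2 held 2 counts (0.109 CPM) and replicate 3 held 106 counts (2.57 CPM). Replicates 1 and 3 thus had this copy in all their sections, at 1.49 to 3.91 CPM, while replicate 2, which also stood apart over all genes, had none in 3 of its 5 sections.

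At 1 hpf LOC110504089 had 16 and 60 counts in the sums (0.853 and 1.72 CPM), between the 0 hpf values. No difference from 0 hpf passed the test (log2 -0.59, SE 1.0, adjusted p = 0.77). Sections A and E did not differ by the test at 0 hpf (0.25, SE 0.44, adjusted p = 0.638) or at 1 hpf (0.17, SE 0.77, adjusted p = 0.869). The sign of both differences turned when 1 replicate was left out.

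At 1 dpf LOC110504089 was higher in the animal sections of 2 of the 3 replicates. Section A held 22.4, 16.1 and 1.01 CPM for replicates 1, 2 and 3, from 158, 94 and 9 counts. Section B held 15.2, 14.7 and 0.915 CPM. Replicates 1 and 2 were high in both sections and replicate 3 was not.

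Section E held 0.395, 0.84 and 0.697 CPM at that stage, so every section A library was above every section E library. The A to E difference was 4.38 (SE 0.95, edgeR adjusted p = 0.000749). Without replicate 1 it was 3.21 (adjusted p = 0.0935) and without replicate 3 it was 5.06 (adjusted p = 1.65e-09). Sections A and B together held 92.8% and 94.1% of the summed CPM of LOC110504089 in replicates 1 and 2, and 29.3% in replicate 3.

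Low values in 1 dpf replicate 3 were not limited to chrd. Its section A library held a count for 22661 genes, against 23226 and 23189 in replicates 1 and 2. Its depth was 8.0 M counts, against 6.06 and 5.09 M. In section B the numbers of genes with a count were 23234, 23106 and 22548 for replicates 1, 2 and 3. klf17 LOC110508725, a copy of a transcription factor gene listed as a marker of the enveloping layer (the outer epithelium of the blastula), had 92.9, 67.3 and 0.0 CPM in section A of replicates 1, 2 and 3. The other copy, klf17, had 92.1, 83.1 and 53.5 CPM. The 8 enveloping layer markers together had 343.0, 227.0 and 63.7 CPM in those libraries and 106.0, 115.0 and 112.0 CPM in section E. The part of these cells, or of this replicate, in the chrd, vox and vent values was not tested.

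LOC110507926, the second copy of chrd, was close to absent before 3 dpf. Its counts over all libraries of a stage were 5 at 0 hpf, 1 at 1 hpf and 15 at 1 dpf, and no library had more than 4. At 3 dpf it reached 568 counts in 1 library.

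At 3 dpf both copies were strong in section A and present in section B. LOC110504089 had 31.9, 75.9 and 110.0 CPM in A and 44.0, 28.2 and 20.1 CPM in B, and LOC110507926 had 17.5, 73.2 and 122.0 CPM in A and 35.3, 7.88 and 0.841 CPM in B. For both copies the highest section A library was replicate 3 and the lowest was replicate 1, and B ran the other way, so sections A and B overlapped in LOC110507926 and LOC110504089 alike.

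In section E LOC110504089 had 6 counts over 3 libraries (0.666 ± 0.334 CPM) and LOC110507926 had 1. The A to E difference of LOC110504089 was 6.51 (SE 0.61, adjusted p = 9.11e-08). For LOC110507926 the ratio of A to E was 593 with a 95% counting interval of 106 to 23470 (edgeR adjusted p = 0.000468). Both copies were at or near 0 in sections C and D as well, at most 1.89 CPM.

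From 1 to 3 dpf in section A, LOC110507926 rose by 8.08 on the log2 scale (SE 0.86, adjusted p = 3.95e-05). LOC110504089 rose from 13.2 ± 11 to 72.6 ± 39.1 CPM, a log2 difference of 2.39 (SE 0.85, adjusted p = 0.0366). That call was lost with the replicate number as a block (adjusted p = 0.054), with library totals alone (0.06), with DESeq2 (0.072) and without any 1 replicate (0.0612 to 0.114), with differences of 1.4 to 3.41. In the sums over sections LOC110507926 rose by 6.42 (SE 0.51, adjusted p = 0.000367; 0.0768 without replicate 1), whereas LOC110504089 did not pass the test (1.89, SE 0.86, adjusted p = 0.214).

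vox, vent and ved, the repressor genes, showed their highest levels of the series at 3 dpf, in section A. At 0 and 1 hpf none of them exceeded 5 counts in a library. Summed over the libraries of 0 hpf and of 1 hpf, vox had 20 and 11 counts, vent 8 and 8, and ved 14 and 16.

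At 1 dpf vox and vent had 14 counts or more in sections A and B of replicates 1 and 2. In section A vox had 8.65, 3.78 and 0.112 CPM in replicates 1, 2 and 3 (61, 22 and 1 counts), and vent had 5.67, 4.12 and 0.0 CPM (40, 24 and 0 counts). In section B vox had 3.75, 7.6 and 0.152 CPM and vent 3.75, 3.8 and 0.152 CPM. Replicates 1 and 2 held both genes in both sections and replicate 3 held 1 count or none, as it did for klf17 LOC110508725.

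In section E of 1 dpf vox had 1 count over 3 libraries and vent had none. The ratio of A to E for vox was 44.4 with a counting interval of 7.75 to 1773 (edgeR adjusted p = 0.000413; 0.0625 without replicate 1). vent was at least 11.3-fold higher in A, against a floor of 3 counts over the group (adjusted p = 7.12e-05). ved was not seen to rise at this stage, with 23 counts over 15 libraries and 5 of them in section A.

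Of the 6 genes, 4 passed the low-count filter at 1 dpf and 3 were called higher in A, where 32.9% of 22141 genes were called higher in A and 63.4% in either direction. All 3 called genes, chrd LOC110504089, vox and vent, passed that filter through their counts in sections A and B, so the direction of their difference was partly given by passing. Against 1 hpf, no gene was called at 1 dpf by edgeR in the sums (percent called 0.0) or in section A (0.0). At an unadjusted p under 0.05, where a share of 0.05 is expected with no difference, edgeR counted 679 genes in the sums (2.89%) and 852 in section A (3.68%). DESeq2 called 11 and 13 after adjustment.

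For vox in section A that comparison gave 4.18 ± 4.29 CPM at 1 dpf against 0.351 ± 0.337 CPM at 1 hpf (n = 3 and 2), with an edgeR adjusted p of 1. vent gave 3.26 ± 2.93 against 0.442 ± 0.625 CPM, also with an adjusted p of 1. Without 1 dpf replicate 3, a choice made after its low values were seen, the adjusted p was 0.00886 for vox and 0.0219 for vent. That left 2 replicates selected by the same genes, so these values are a description of the libraries that held them.

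At 3 dpf all 3 repressor genes were abundant in every section A library. vox had 442.0, 512.0 and 428.0 CPM, vent 702.0, 836.0 and 713.0 CPM, and ved 271.0, 305.0 and 197.0 CPM. The means were 460.0 ± 45.0, 750.0 ± 74.5 and 258.0 ± 55.3 CPM (SD, n = 3), and no section A library overlapped a section B library of the same gene.

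Section B held 135.0, 159.0 and 237.0 CPM of vox, 166.0, 159.0 and 352.0 CPM of vent, and 40.4, 20.1 and 100 CPM of ved. For each gene replicate 3 was the highest in B. In sections C and D none of the 3 genes exceeded 6.43 CPM.

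From 1 to 3 dpf in section A, ved rose by 9.96 (SE 0.41, adjusted p = 4.94e-07), vent by 7.84 (SE 0.72, adjusted p = 8.75e-06) and vox by 6.75 (SE 0.69, adjusted p = 1.8e-05). All 6 genes were called higher in this comparison, where 25.5% of 23147 genes were called higher and 49.4% in either direction. ved and chrd LOC110507926 had 5 counts each over the section A libraries of 1 dpf. They passed the low-count filter through 3 dpf, here and in the sums, so the direction of their difference was partly given by passing. Without 1 dpf replicate 3 the differences were 6.1 for vox and 7.16 for vent, and without replicate 1 they were 8.06 and 8.71, with ved at 10.64. chrd LOC110507926 ran from 7.0 without replicate 3 to 8.71 without replicate 1. In the sums over sections ved rose by 7.81 (SE 0.39, adjusted p = 5.24e-05), vent by 7.25 (SE 0.8, adjusted p = 0.00071) and vox by 6.17 (SE 0.73, adjusted p = 0.000955), and 5 of the 6 genes were called higher where 8.06% of 23460 genes were (3.15% lower, 11.2% in either direction). Without replicate 1 the sums no longer passed for vox (log2 6.77, adjusted p = 0.0967) or vent (8.0, 0.0829).

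Between A and E at 3 dpf the difference was 6.0 for vox (SE 0.57, adjusted p = 1.11e-07), 5.78 for vent (SE 0.66, adjusted p = 9.01e-07) and 5.43 for ved (SE 0.66, adjusted p = 1.63e-06). All 6 dorsoventral genes were called higher in A, where 38.1% of 22380 genes were called higher and 72.4% in either direction. bmp4 had 17 counts or more in every library of sections D and E, whereas the other 5 genes had most of their counts in A and B and passed the filter through them, so the direction of their difference was partly given by passing.

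One vegetal library carried most of the repressor counts of section E. In replicate 2 of 3 dpf, section E held 58 counts of vox, 130 of vent and 49 of ved, against 7, 4 and 2 in replicate 1 and 0, 4 and 2 in replicate 3. This was 2.98%, 4.08% and 4.22% of the level in section A of that replicate, while the chrd copies stood at 1.38% (LOC110504089) and 0.359% (LOC110507926). The 2 genes listed as liver markers, both copies of apoa1b, summed to 15.0 CPM in that section E library against 1.32 and 1.02 CPM in the others. Most of that sum came from apoa-i-1, at 12.9 CPM (49 counts) against 0.0 and 0.0 CPM. The other copy, apoa-i-2, had 2.1 against 1.32 and 1.02 CPM, from 8, 3 and 2 counts. The enveloping layer markers summed to 122.0 CPM there, 89.0 CPM of it from the copy klf17, against 85.6 and 119.0 CPM. Of these 8 markers, 4 were highest in that library, grhl3 LOC110498393 (20.5 against 13.2 and 12.7 CPM), grhl3 (3.68 against 2.21 and 1.02 CPM), cldne LOC110507726 (2.63 against 0.882 and 0.0 CPM) and klf17 LOC110508725 (1.31 against 0.0 and 0.508 CPM). The others were not highest there. The copy klf17 had 89.0 against 66.6 and 99.5 CPM, and s1, a copy of krt8, had 2.89 against 1.32 and 3.05 CPM. The krt5 copies had 1.84 against 0.882 and 2.03 CPM (e1) and 0.0 against 0.441 and 0.0 CPM (LOC110528490). The yolk syncytial layer markers, described below, summed to 120.0 CPM there against 122.0 and 137.0 CPM. The part of any of these markers in the vox, vent and ved counts was not tested.

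Without that library the A to E difference was 8.16 for vox, 8.77 for vent and 8.3 for ved. These sizes rest on few counts, as section E of replicates 1 and 3 held 7 and 0 of vox, 4 and 4 of vent and 2 and 2 of ved. A change in the A to E difference between 1 and 3 dpf was not shown for these genes (adjusted p = 0.966 for vox, 0.696 for vent and 0.0809 for ved), nor for either chrd copy (0.297 for LOC110504089 and 0.99 for LOC110507926). However, vox, vent, ved and LOC110507926 had 3 counts or fewer over the section E libraries of 1 dpf. Their SEs in this test were 6.87, 2.8, 2.58 and 146.55, so it could not decide whether their difference changed. ved passed that test without the 3 dpf section E library of replicate 2 (adjusted p = 0.00539), with DESeq2 (0.0012) and without the replicate block (0.0213). bmp4 was the 1 gene of the 6 called in it, where 22.8% of 23458 genes were called higher, 21.2% lower and 43.9% in either direction.

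The order of the 20 groups by mean was headed by sections A and B of 3 dpf for each of the 5 genes other than bmp4. For vox, vent and ved both steps down from these groups, A to B and B to the next, were larger than the spread of the libraries. For the chrd copies no neighbouring pair was separated in this way. Sections A and B of 1 dpf followed for LOC110504089 (13.2 ± 11 and 10.2 ± 8.09 CPM), while for vox, vent and ved section E of 3 dpf came next (6.11 ± 8.05, 12.6 ± 18.6 and 4.92 ± 6.88 CPM), through the single library named above.

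**Figure D2:**
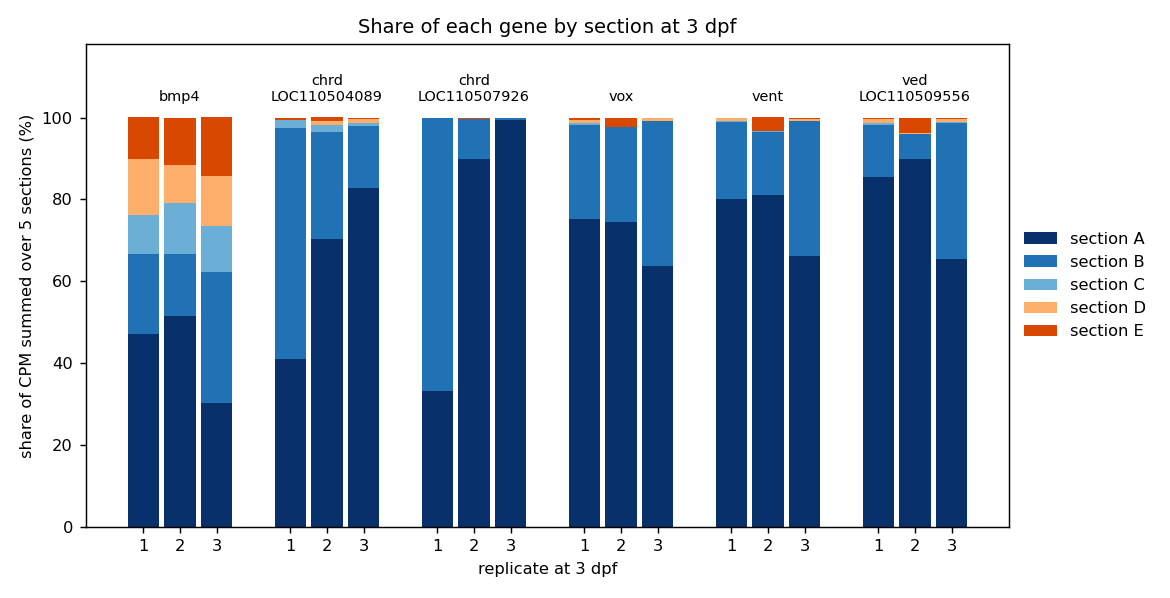
Share of each gene's CPM, summed over the 5 sections of a replicate, that lay in each section at 3 dpf; bars are replicates 1, 2 and 3. Sections A and B hold 95.9% to 100% of the 5 genes other than bmp4, and 62.1% to 66.7% of bmp4.

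Between sections A and B at 3 dpf, the replicates ranked differently for chrd and for the other genes. The ratio of A to B for LOC110504089 was 0.725, 2.69 and 5.48 in replicates 1, 2 and 3, and for LOC110507926 it was 0.495, 9.3 and 145.0. Both copies were thus higher in B than in A in replicate 1 and most concentrated in A in replicate 3.

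In the other 4 genes replicate 3 had the lowest ratio of A to B. It was 3.27, 3.22 and 1.81 for vox, 4.23, 5.25 and 2.02 for vent, 6.7, 15.2 and 1.97 for ved, and 2.4, 3.38 and 0.951 for bmp4. In replicate 3 the counting intervals of the chrd ratios (4.54 to 6.64 and 66.0 to 396.0) lay above those of vox (1.69 to 1.93), vent (1.92 to 2.13) and ved (1.78 to 2.18), and in replicate 1 they lay below. These intervals cover single libraries, and the difference between the genes was not tested over replicates.

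Markers of other cell layers also moved between these replicates. The 5 yolk syncytial layer markers, genes of the nucleated yolk surface under the blastoderm in zebrafish, summed to 1067.0, 1219.0 and 260.0 CPM in section B and to 497.0, 305.0 and 179.0 CPM in section A. The enveloping layer markers summed to 944.0, 747.0 and 838.0 CPM in A and 167.0, 133.0 and 258.0 CPM in B. Their part in the ratios of chrd, vox, vent, ved and bmp4 was not tested.

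**Figure D3:**
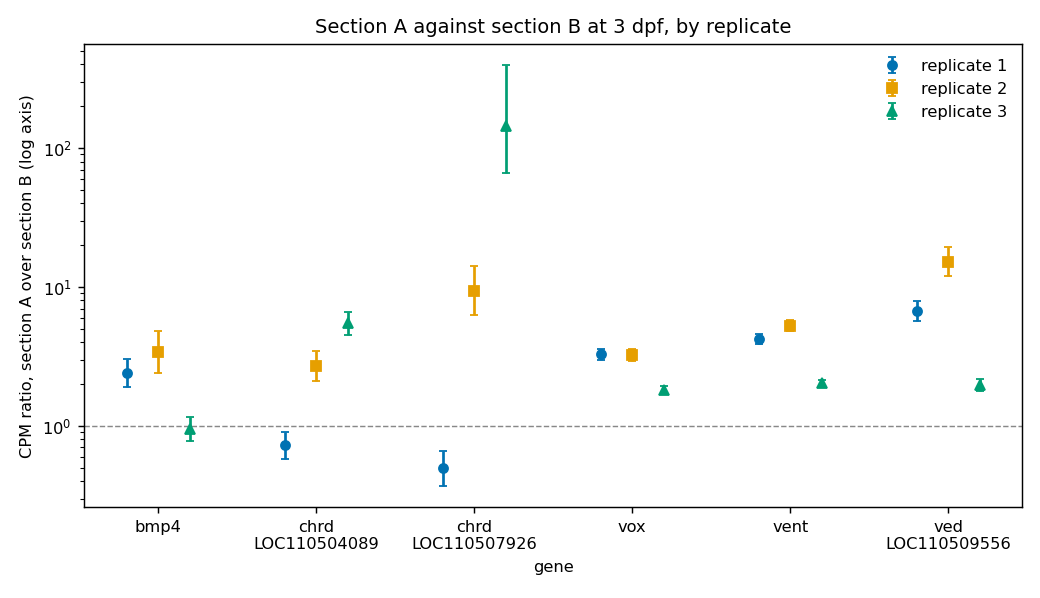
Ratio of the level in section A to that in section B at 3 dpf, on a log axis; points are replicates, error bars are exact 95% counting intervals, and the dashed line marks equal levels. Both chrd copies lie below 1 in replicate 1 and have their highest ratio in replicate 3, where the other 4 genes have their lowest.

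Over the 20 group means of log2(CPM + 1), the repressor genes followed each other closely, with Pearson r of 0.97 to 0.99 between pairs. The chrd copies correlated with them at 0.83 to 0.96 and with each other at 0.91, while bmp4 correlated with the other 5 genes at 0.25 to 0.35. These are descriptions over 20 groups, of which those of a stage are sections of the same replicates, and in which 2 groups of 3 dpf hold most of the range. vox and vent are next to each other in the RefSeq gene order of assembly USDA_OmykA_1.1, with 0 genes between them. Reads that fit both of these genes, or both copies of chrd, could have been divided or dropped in the counting, and the rule for them is not given in the sources used here.

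Among 23458 genes, those most like vox over the same 20 groups were mycn and dusp6 (both 0.993) and ypel2a (0.991), and for vent mycn (0.992), dusp6 (0.988) and aplnrb LOC110523701 (0.983). For ved they were apoe (0.992), apoc1 LOC110510206 (0.987) and id1 (0.985). For chrd LOC110504089 they were zic1 (0.981), rnd1b (0.98) and wu:fc11c11 LOC118938392 (0.978), and for bmp4 they were trub1 (0.96), trim3a LOC110507668 (0.957) and rnf25 (0.946).

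The rest of the pathway was read from 5 lists of zebrafish symbols. They were chosen with earlier results of these data known, and between 5 and 18 symbols of each were found. Of 6 other ligands tested at 0 hpf, 4 were lower in A and none was higher, with a median of -1.27 against -0.011 for all genes, of which 32.0% were called lower, 32.0% higher and 64.0% in either direction. bmp15, an oocyte growth factor, had 89.5 ± 18.1 CPM in A and 368.0 CPM in E (log2 -2.04, SE 0.15, adjusted p = 5.3e-09), and gdf9 LOC110489166, another, had a difference of -1.51 (SE 0.11, adjusted p = 8.15e-09).

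Of 15 tested genes of the dorsal organizer and its upstream factors, 10 were lower in A at 0 hpf and none was higher, with a median of -0.75, beside the same 32.0% of all genes lower and median of -0.011. The BMP target genes went the same way, with 4 of 5 tested lower in A, none higher and a median of -0.62. Both copies of hwa, which encodes the membrane protein huluwa that zebrafish need to form the organizer, were far lower at the animal pole, by -6.26 for hwa (SE 0.31, adjusted p = 1.37e-10) and -6.14 for LOC110509564 (SE 0.39, adjusted p = 1.3e-09). lef1 LOC110497329, a Wnt-responsive transcription factor gene, followed with -4.36 (SE 0.52, adjusted p = 1.71e-06). hwa kept this direction to 3 dpf, with 0.863 ± 0.781 CPM in A and 263.0 ± 59.5 CPM in E.

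Among extracellular modulators at 0 hpf, bmp1a LOC110525648, which encodes a protease of the family that cleaves chordin, was higher in A by 1.58 (SE 0.17, adjusted p = 5.76e-07). twsg1a LOC110509148, whose product binds BMPs and chordin, was lower in A by -1.21 (SE 0.13, adjusted p = 5.58e-07). Of 27 receptors, Smads and regulators tested, 11 were higher and 8 lower in A, shares near the 32.0% of all genes called in each direction. smurf1 LOC110516851, which encodes a ubiquitin ligase for Smads, was higher by 1.5 (SE 0.32, adjusted p = 0.00064), and smad1 LOC110531330, an intracellular transducer of BMP signals, by 0.75 (SE 0.11, adjusted p = 1.78e-05).

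From 0 to 1 hpf, the lists held 0 or 1 called gene each, where 3.48% of all genes were called, so these counts are near the background. Of 31 receptors, Smads and regulators, 1 was called, smad5, another transducer, which fell by 1.01 (SE 0.17, adjusted p = 0.0158). Of 16 BMP target genes 1 was called, id2a, which rose by 1.04 (SE 0.21, adjusted p = 0.0282). Of 8 modulators 1 was called, fstl1b LOC110527546, which rose by 2.8 (SE 0.65, adjusted p = 0.0468). Of 27 genes on the list of the dorsal organizer and its upstream factors 1 was called, ctnnb1 LOC110535244, which fell by 0.52 (SE 0.12, adjusted p = 0.0461). The other copies of smad5 and ctnnb1 were not called, LOC110504484 (log2 -0.19, SE 0.11, edgeR adjusted p = 0.338) and LOC110512888 (0.38, SE 0.16, 0.2). None of the 7 other ligands was called in the sums, and with other settings 0 to 5 members of a list were called.

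At 1 dpf, 7 of 11 tested BMP target genes were higher in section A and 1 was lower, with a median of 2.03 against 0.046 for all genes, of which 32.9% were called higher and 30.5% lower. Members such as id1 LOC110527919, dlx5a and gata2a LOC110494514 had almost no counts in E and passed the filter through the animal sections, which partly set their direction. Among the genes called higher, gata2a LOC110494514, dlx5a and both copies of foxi1 did not keep one direction in all replicates. tfap2a, a gene of ventral and lateral ectoderm, had 11.7 ± 10.1 CPM in A and 2.15 ± 1.86 CPM in E (log2 2.43, SE 0.46, adjusted p = 0.000197). id1 LOC110527919, which encodes an inhibitor of bHLH transcription factors and is a common BMP readout, was 58.6 times higher in A with a counting interval of 10.3 to 2336 (adjusted p = 1.35e-05). Other tested copies of id1 leaned the other way and were not called, LOC110494548 (log2 -0.76, SE 0.46, edgeR adjusted p = 0.157) and LOC110532286 (-0.6, SE 0.32, 0.115). Without a replicate block, with DESeq2 or without replicate 1 or 2 the number of target genes called was 4 or 5 instead of 8. Of 17 tested genes on the list of the dorsal organizer and its upstream factors, 4 were higher in A at 1 dpf and 6 lower, with a median of -0.066. Among those higher, otx2b LOC110522467 and fgf8a had no count in E and passed the filter through other sections. Of the same called genes, gsc, otx2b LOC110529854 and fgf8a did not keep one direction in all replicates.

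At 3 dpf, 14 of 15 tested target genes were higher in A and 1 lower, where 38.1% of all genes were called higher and 34.3% lower. Members such as dlx5a, id3, gata3 LOC110500122 and eve1 LOC110538945 had few or no counts in E and passed the filter through the animal sections, which partly set their direction. The list had a median of 5.32 against 0.075 for all genes, or 4.9 with the genes of 3 counts or fewer in a pole set at their bound or ratio. id1 LOC110527919 stood at 212.0 ± 25.3 CPM in A and 2.44 ± 3.38 CPM in E (log2 6.12, SE 0.55, adjusted p = 5.96e-08), and id3, a related inhibitor, differed by 5.71 (SE 0.61, adjusted p = 3.69e-07). dlx5a, a homeobox gene of the ectoderm border, was at least 17.4-fold higher, with no count in E (adjusted p = 6.56e-05). The exception was id2, lower in A by -0.42 (SE 0.16, adjusted p = 0.0288).

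The dorsal list gave 18 higher and 7 lower in A of 27 tested, with a median of 4.48, or 4.8 set in that way, where 38.1% of all genes were called higher and 34.3% lower. Of the 27, 11 had 3 counts or fewer in a pole, and those higher in A passed the filter through the animal sections. The Nodal ligand ndr2 (LOC110515815) was at least 33.7-fold higher in A, and the FGF ligands fgf24 and fgf8a at least 37.9-fold and 35.7-fold (adjusted p = 0.000162, 0.000137 and 1.25e-05). The sections pool dorsal and ventral cells, so the side of the embryo on which either list was expressed was not measured.

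Among ligands at 3 dpf, admp, a ligand that the zebrafish organizer expresses, was higher in A (37.7 ± 35.8 against 0.676 ± 0.952 CPM, log2 5.62, SE 1.22, adjusted p = 0.000823). The oocyte ligands stayed vegetal, at -2.83 for bmp15 (SE 0.19, adjusted p = 4.36e-09). Of 8 modulators, 4 were higher and 3 lower, with a median of -0.022 against 0.075 for all genes. bambia, a pseudoreceptor gene, had 248.0 ± 58.5 CPM in A and 8.09 ± 6.21 CPM in E (log2 4.8, SE 0.4, adjusted p = 3.08e-08). bmper, which encodes a BMP-binding protein, differed by 5.43 (SE 0.67, adjusted p = 1.86e-06). Lower in A were fstl1b LOC110527546 (-2.66, SE 0.38, adjusted p = 1.04e-05) and the twsg1a copies LOC110509148 (-1.79, SE 0.18, adjusted p = 1.71e-07) and LOC110535252 (-0.87, SE 0.32, adjusted p = 0.0209). Of 31 receptors, Smads and regulators, 14 were higher and 13 lower, near the 38.1% and 34.3% of all genes. Among those higher were both copies of the inhibitory Smad gene smad7, at least 12.4-fold for smad7 (adjusted p = 0.000498) and by 5.97 for LOC101268922 (SE 0.56, adjusted p = 9.8e-08). smad4, the shared partner of the receptor Smads, was higher too (log2 4.72, SE 0.41, adjusted p = 4.61e-08). The smad4a copies LOC101268920 (2.86) and LOC110523770 (0.75) were also called higher, and LOC110537152 (-0.87) lower. Among those lower were the receptor genes bmpr1ba (-2.37, SE 0.63, adjusted p = 0.00311), acvr1l LOC110528876 (-1.9, SE 0.24, adjusted p = 2.98e-06) and bmpr1bb (-1.59, SE 0.6, adjusted p = 0.0263).

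**Figure D4:**
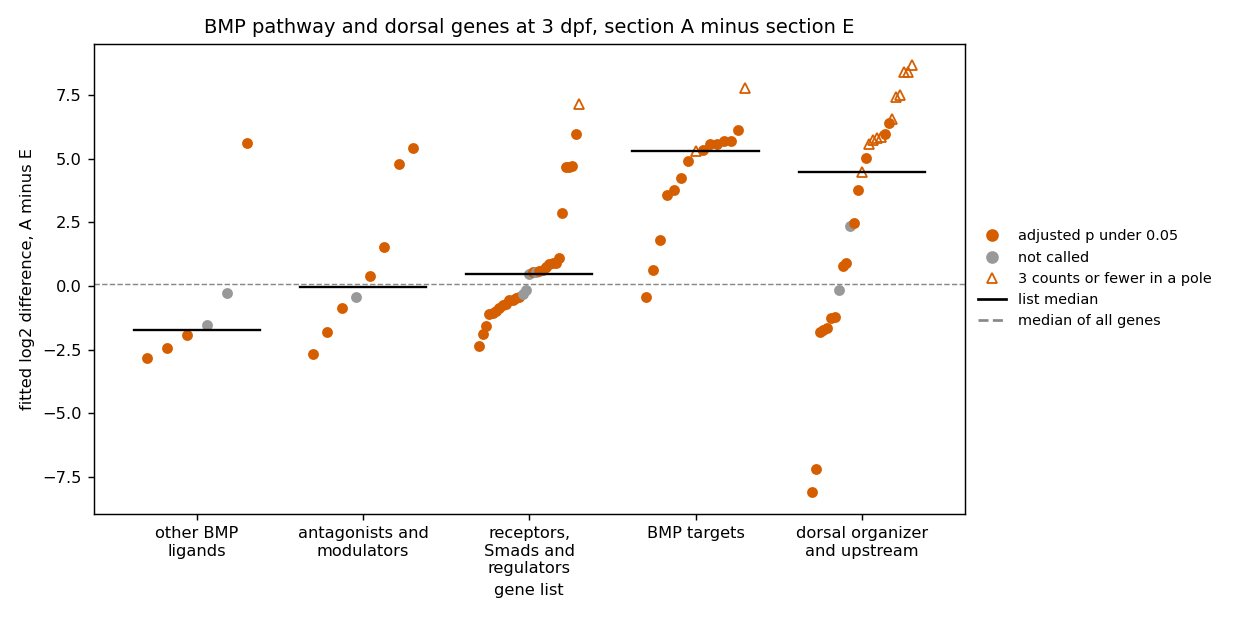
Fitted log2 difference between section A and section E at 3 dpf for the genes of 5 pathway lists, in order within each list; orange marks genes with an adjusted p under 0.05, open triangles genes with 3 counts or fewer in a pole, whose size depends on the fit, and bars list medians. The BMP targets have a median of 5.32 and the dorsal list one of 4.48, while the 2 lowest points of that list are the copies of hwa.

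In section A itself, 11 of 16 BMP target genes rose from 1 to 3 dpf and none fell, with a median of 2.12 against -0.067 for all genes, of which 25.5% rose, 23.9% fell and 49.4% were called in either direction. id1 rose from 0.483 ± 0.457 to 379.0 ± 43.0 CPM (log2 9.55, SE 0.45, adjusted p = 4.67e-07). Of 26 genes on the dorsal list 18 rose and 3 fell. Among those that rose was ndr1, a Nodal ligand, which was at least 155-fold higher at 3 dpf (adjusted p = 0.000471). bambia rose by 5.93 (SE 0.44, adjusted p = 2.43e-06), smad7 LOC101268922 by 6.36 (SE 0.73, adjusted p = 0.00018), and admp was at least 261-fold higher (adjusted p = 0.00412). Their lists were mixed, with 2 of 8 modulators up and 1 down. Of 31 receptors, Smads and regulators 12 rose and 8 fell, and of 7 other ligands 1 rose and 4 fell. Listed genes such as id3, eve1 LOC110538945, ndr1 and admp had few or no counts in section A at 1 dpf. They passed the filter through 3 dpf, which partly set their direction.

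Markers of the enveloping and yolk syncytial layers were also mostly higher in A at 3 dpf. From 1 to 3 dpf in section A, 4 of 8 enveloping layer markers rose and 1 fell. Of the 5 yolk syncytial layer markers 4 rose and none fell, where 25.5% of all genes rose and 23.9% fell. Of 8 enveloping layer markers tested between A and E at 3 dpf, 7 were higher in A and 1 was lower. Their summed levels were 747.0 to 944.0 CPM in A and 85.6 to 122.0 CPM in E. The lower one was the copy klf17 (log2 -1.16, SE 0.21, edgeR adjusted p = 8.68e-05), which made up most of the sum in section E. In this comparison 38.1% of all genes were called higher in A, 34.3% lower and 72.4% in either direction. Of 5 yolk syncytial layer markers 4 were higher in A (179.0 to 497.0 against 120.0 to 137.0 CPM), and hnf4a LOC110492032 was at 0 in every section E library. The exception was mxtx2, a regulator of that layer in zebrafish, which was lower in A (63.9 ± 17.5 against 120.0 ± 10.2 CPM, log2 -0.89, SE 0.27, adjusted p = 0.00683) and made up most of the sum in section E. At 1 dpf krt5 LOC110528490 and hnf4a were at 0 in sections A and E. Both passed the filter of the section A comparison through 3 dpf, which partly set their direction. Both genes listed as liver markers, the copies of apoa1b, were called higher in A at 3 dpf. Their differences were 5.43 for apoa-i-1 (SE 0.65, edgeR adjusted p = 3.1e-06) and 4.51 for apoa-i-2 (SE 0.49, 4.73e-07). Both also rose in section A from 1 to 3 dpf, where apoa-i-1 had no count at 1 dpf and passed the filter through 3 dpf. The 1 gene found of the sperm and testis list did not differ between A and E at 3 dpf by the test (log2 -0.86). The lists for follicle cells and blood had 0 genes in the table, and the part of any of these cell types in the results was not tested.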

How the data were processed

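RNA from 5 sections of rainbow trout eggs and embryos was ribosomal-depleted and sequenced. The authors deposited raw read counts per gene, made with fastp 0.23.4, STAR 2.7.11 and HTSeq 2.0.4, per the submitters' processing notes, which also name DESeq2. Libraries were made with a directional kit, per the labels. The genome build, the strand setting of the counting and the handling of reads that fit several genes are not given in the sources consulted, and the level of a single copy is therefore uncertain, with no coordinates printed. Of 60 labelled libraries 55 were used, and the 5 of 1 hpf replicate 2 were not analysed here. Symbols came from the deposited ortholog table and RefSeq (23470 of 23471 identifiers matched). Sequences of the genes were not used here.

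Counts were fitted in R 4.3.3 with the quasi-likelihood test of edgeR 4.0.16 after filterByExpr (minimum count 10) and TMM scaling, with Benjamini-Hochberg adjustment over all genes tested and a threshold of 0.05. Differences between A and E, and their change from 1 to 3 dpf, were fitted with the replicate number as a block, since the labels give the sections of a stage one replicate number. Stage comparisons used section A or the counts summed over sections, without the block. A fold against a group with no count is a lower bound at 3 counts over the group, and 1 to 3 counts give a ratio with its exact 95% interval. Correlations used log2(CPM + 1), with a pseudocount of 1.

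Same-numbered replicates of 1 and 3 dpf deviated together (0.51, 0.36 and 0.58 in the sums, 0.14, 0.19 and 0.36 in section A), but replicates 1 and 2 did so across numbers too (0.46 for 1 dpf replicate 2 with 3 dpf replicate 1 in the sums, 0.21 for 1 dpf replicate 1 with 3 dpf replicate 2 in section A). The 2 shared numbers of 1 hpf and 1 dpf gave 0.59 and 0.68 in the sums and 0.42 and 0.5 in section A. Across numbers, 1 hpf replicate 1 with 1 dpf replicate 2 gave 0.62 and 0.41. With 2 replicates at 1 hpf the deviations mirror each other, so these values cannot decide. The shared numbers of 0 and 1 hpf gave 0.03 and -0.04 in the sums. Alternatives were library totals, RLE factors, no filter, sections weighted equally in the sums, the block added or removed, DESeq2 1.42.0 and leaving out replicates. The scripts were tested on simulated data.

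The genes and lists were chosen with earlier results of these data known. Named were all copies of the 8 symbols, up to 3 called genes per list and direction with the largest difference and one direction in every replicate, and the 3 genes most correlated with the most abundant copy of each symbol. The klf17, krt5, krt8, grhl3, cldne, mxtx2, gata2a, gata3, eve1, foxi1, gsc, hnf4a, apoa1b and smad4a genes were singled out after their values were seen. So were the further id1, otx2b, smad5 and ctnnb1 copies and single libraries.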

Additional observations from a re-analysis of the deposited data

Results flagged for a closer look

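The A to E difference of bmp4 was larger at 3 dpf than at 1 dpf by 1.48 on the log2 scale (SE 0.35, edgeR adjusted p = 0.000668), which passed the test of the change itself. In that test 43.9% of all genes were called. The highest value of bmp4 at 3 dpf was in section A in replicates 1 and 2 and in section B in replicate 3 (36.0 against 34.3 CPM). No cause was tested.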

How the results depend on the processing

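Over 50 results on the 6 genes, 416 values under other settings kept direction and side of the threshold, 16 lost it, 10 gained it and 16 turned sign; the cause was not tested. The number of genes called between A and E at 1 hpf fell from 11367 to 6165 without the replicate block and to 7377 to 7383 with 1 replicate left out. From 0 to 1 hpf, 816 became 1822 with the replicate block, 2929 with DESeq2, 3107 without 0 hpf replicate 2, and 2 to 1899 with 1 replicate number left out. From 1 hpf to 1 dpf, 0 became 11 (sums) and 13 (section A) with DESeq2, 102 and 364 without 1 dpf replicate 3, and up to 344 in section A without replicate 3. From 1 to 3 dpf, 2630 in the sums became 3981 with DESeq2, 1718 without 1 dpf replicate 3, and 1 to 1941 with 1 replicate left out (820 without replicate 3). Where 1 library was left in a group, its spread was taken from the other groups.

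Sign turned in chrd LOC110504089 between A and E at 0 hpf (-0.49 to 1.01 with 1 replicate left out) and 1 hpf (-0.44 to 2.1) and from 0 to 1 hpf (-1.11 to 0.3). It turned in bmp4 between A and E at 0 hpf (0.028 with library totals) and 1 hpf (-0.0099 without replicate 3) and from 1 hpf to 1 dpf (-0.0088 with library totals, -0.087 without replicate 2). It turned in vox from 0 to 1 hpf (-0.19 to 0.58 with 1 replicate left out, -0.12 without 0 hpf replicate 2) and in ved from 1 hpf to 1 dpf (-0.03 with library totals, -0.0053 with DESeq2, -0.49 to 0.59 with 1 replicate left out). For vent it turned in the change of the A to E difference (adjusted p = 0.76 with DESeq2, 0.622 to 0.863 with 1 replicate left out, 0.851 without the 3 dpf section E library of replicate 2). None of these passed the threshold.

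Library totals moved the median of all genes by 0.19, 0.2 and 0.3 between A and E at 0 hpf, 1 hpf and 1 dpf, by -0.32 from 1 to 3 dpf in section A and by -0.4 in the change of the A to E difference. The share of called genes that were higher went from 49.9% to 61.1%, 52.5% to 65.6%, 51.9% to 67.6%, 51.6% to 36.4% and 51.8% to 30.9%. The replicate block ended 1 call, that of chrd LOC110504089 in section A from 1 to 3 dpf (adjusted p = 0.054). Depth limits vox, vent, ved and chrd LOC110507926 before 3 dpf, where most libraries hold a few counts or none. All alternatives without 1 dpf replicate 3, 0 hpf replicate 2 or the 3 dpf section E library were chosen after seeing the data.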
